A study of Homo sapiens with 8 samples.

Results

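The genes examined encode 5 histone acetyltransferases (CREBBP, EP300, KAT2A, KAT2B and KAT5) and 5 histone deacetylases (HDAC1, HDAC2, HDAC3, HDAC5 and HDAC7). They were selected by symbol from the RNA-seq table of LP-1 cells treated with bromodomain inhibitors, and they are 10 of its 63129 genes. LP-1 is an established human multiple myeloma cell line, that is, a malignant plasma cell line. The cells received 2.5 μM SGC-CBP30, an inhibitor of the bromodomains of CBP (the protein of CREBBP) and EP300, or 250 nM CPI203, an inhibitor of the BET family of bromodomain proteins, or the solvent DMSO, in each case for 6 hr. All 8 libraries come from this 1 line, in 4 groups of 2 biological replicates. Each compound has its own DMSO pair, assigned by the naming series of the libraries. Below, an experiment means a compound pair with the DMSO pair of its series, and the sample titles do not name experiments. The 2 doses differ and so do the proteins bound, so a difference between the compounds is a difference between these treatments.

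Histone acetyltransferases transfer an acetyl group from acetyl-CoA to lysines of histone tails, and deacetylases remove it. Acetyl-lysine is read by bromodomains, which are found in CBP and EP300 themselves, in KAT2A and KAT2B, and in the BET proteins. In plasma cells and myeloma, CBP, EP300 and BET proteins act at the enhancers and promoters of genes such as IRF4 and MYC.

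IRF4 and MYC served as a check of compound action. IRF4, a transcription factor of plasma cells, had a mean of 213 RPKM (reads scaled to transcript length and to the mapped reads of the library) in DMSO and 82.8 RPKM with SGC-CBP30. MYC had a mean of 243 RPKM in DMSO and 31.2 RPKM with CPI203. MYC was also lower with SGC-CBP30 (288 RPKM in DMSO, 205 RPKM with the compound; -0.49, log2). With CPI203, IRF4 changed less (228 RPKM in DMSO, 202 RPKM with the compound; -0.17). All 9 plasma cell markers examined reached 1 RPKM in some library, with a summed level between 2176 and 3238 RPKM that was lower in each compound's libraries than in its DMSO. JCHAIN alone was between 1270 and 1920 RPKM. Single markers differed: PRDM1 was higher with CPI203 (54.2 and 51.7 RPKM in DMSO, 70.0 and 66.3 RPKM with the compound). SDC1 was higher with SGC-CBP30 (43.9 and 47.2 RPKM in DMSO, 53.1 and 47.4 RPKM with the compound). The others were lower with each compound. None of 5 T cell, 6 myeloid and 4 early B cell markers reached 1 RPKM, and MPO and PAX5 were listed at 0 in all libraries. Estimated depth was between 26000000 and 50100000 reads per library, and the SGC-CBP30 libraries were 1.41 times as deep as their DMSO. Each library is a bulk sample of this line, so a change in all of its cells and a change in a part of them cannot be told apart.

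A few of the start regions are shown first, because the genes they belong to carry the comparisons below. RefSeq start regions were found for 9 of the 10 genes (HDAC5 was not matched), with 2 entries for CREBBP. The 250 bases before each start were searched on both strands for the E-box CACGTG (the motif of MYC and related factors), the cAMP response element core TGACG (the motif of CREB factors, which recruit CBP) and the GC box GGGCGG (the motif of SP factors). Printed below are the parts of these windows that lie in no exon annotated by GENCODE, in build GRCh38.p14, 5′ to 3′ on the strand of the gene, with motif matches in capitals (a match on the other strand reads CGTCA or CCGCCC). They belong to KAT2A, the gene that fell furthest with CPI203 (minus strand, chr17:42121368-42121430), to CREBBP, whose protein SGC-CBP30 binds (minus strand, chr16:3880727-3880963), and to the pair HDAC1 (plus strand, chr1:32291833-32292082) and HDAC2 (minus strand, chr6:113971286-113971398).
KAT2A: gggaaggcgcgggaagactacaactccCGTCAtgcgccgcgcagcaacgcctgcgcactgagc
CREBBP: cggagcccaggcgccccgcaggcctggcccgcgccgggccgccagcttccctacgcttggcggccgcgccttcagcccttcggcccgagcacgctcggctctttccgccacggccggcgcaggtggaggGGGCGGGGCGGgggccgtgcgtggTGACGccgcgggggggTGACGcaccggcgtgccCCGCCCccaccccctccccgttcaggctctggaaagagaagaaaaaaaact
HDAC1: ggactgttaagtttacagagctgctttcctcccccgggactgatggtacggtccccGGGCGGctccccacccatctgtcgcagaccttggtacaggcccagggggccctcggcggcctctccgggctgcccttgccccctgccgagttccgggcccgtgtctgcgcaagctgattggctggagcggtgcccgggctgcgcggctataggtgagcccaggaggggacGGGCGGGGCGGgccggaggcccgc
HDAC2: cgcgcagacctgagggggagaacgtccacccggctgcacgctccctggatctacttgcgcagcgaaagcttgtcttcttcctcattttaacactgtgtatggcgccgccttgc

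Over the whole windows, CREBBP held 2 CREB cores and 3 GC boxes before its first start, and 4 GC boxes and no CREB core before the other. KAT2A held 1 CREB core and no other match. KAT5 was the only one of the 9 genes with an E-box, which overlapped 2 of its 3 CREB cores. HDAC1 and KAT2B held 3 GC boxes each and HDAC3 held 1, while EP300, HDAC2 and HDAC7 held none of the 3 motifs. Over the 35116 start regions of the table, 6.34% held the E-box, 21.2% the CREB core and 42.6% the GC box. A match is a run of letters and was not tested as a binding site.

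All 10 genes were expressed in every library. In the DMSO pair of the SGC-CBP30 experiment the order of levels per transcript length ran from HDAC1 (mean 80.4 RPKM) through HDAC2 (67.8 RPKM), KAT2A (54.8 RPKM), HDAC7 (42.5 RPKM), KAT5 (40.6 RPKM), HDAC5 (31.1 RPKM), HDAC3 (29.4 RPKM), CREBBP (20.8 RPKM) and EP300 (13.1 RPKM) to KAT2B (8.57 RPKM). No neighbours in that order overlapped between their 2 libraries. In the other DMSO pair HDAC7 overlapped both HDAC5 and HDAC3, though HDAC5 lay above HDAC3, and EP300 overlapped KAT2B. With CPI203, EP300 was the lowest (15.1 RPKM), while KAT2B overlapped CREBBP and KAT5 overlapped KAT2A. The lowest single value, 8.29 RPKM for KAT2B, corresponds to about 283 reads per kilobase and a counting error of 5.95%, so counting noise per kilobase was small for the other genes.

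**Figure D1:**
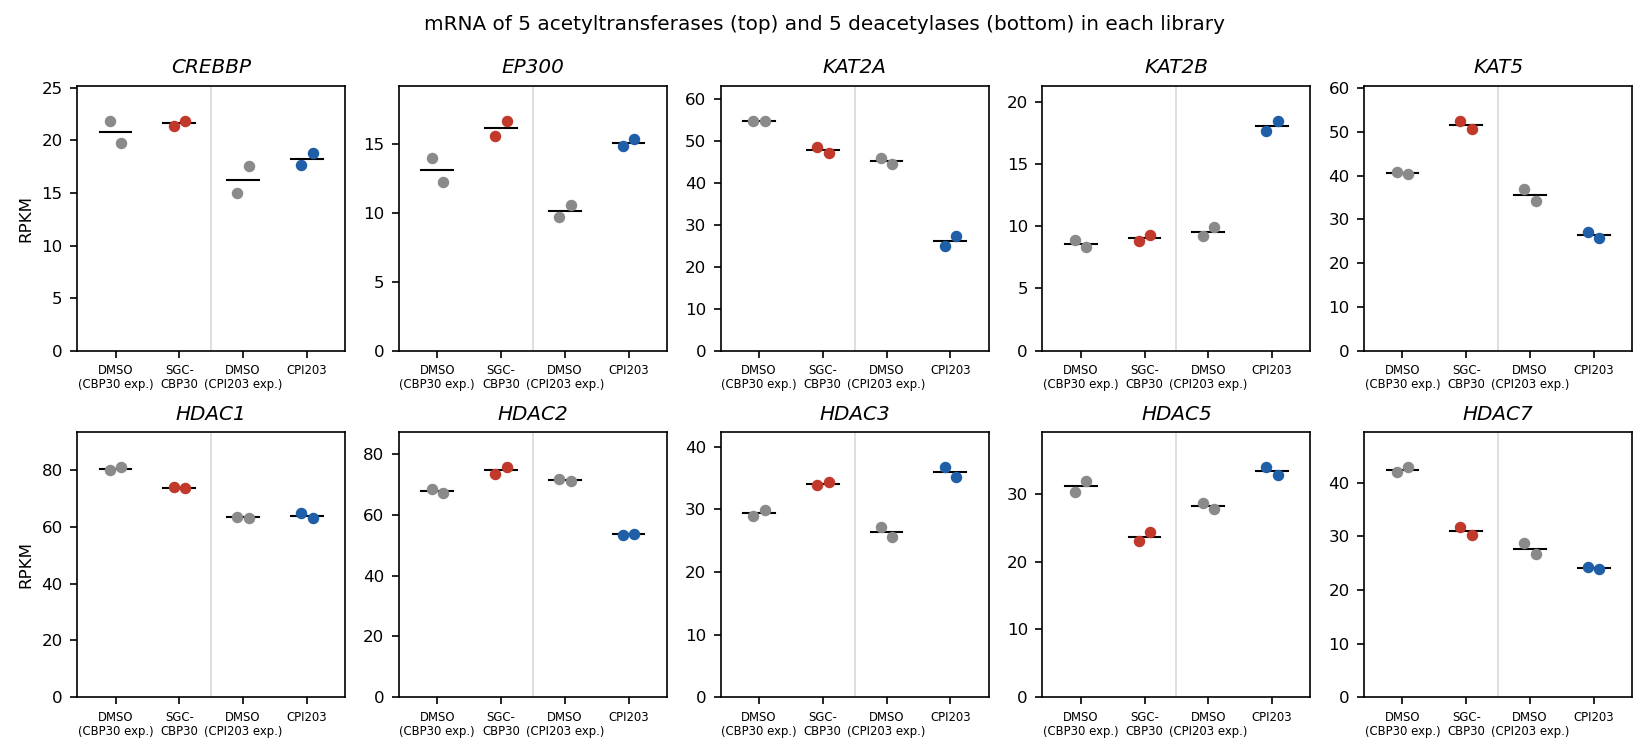
RPKM of each gene in each library, with 1 point per library, a bar at the mean of 2 replicates and a separate axis from 0 in each panel (CBP30 exp., the SGC-CBP30 experiment). KAT2B stands at 17.6 and 18.5 RPKM with CPI203, above all other libraries, and KAT2A at 24.9 and 27.4 RPKM, below all other libraries.

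SGC-CBP30 was compared with its DMSO to ask whether inhibition of the CBP/EP300 bromodomain alters the mRNA of acetyltransferases and deacetylases. EP300, KAT5, HDAC2 and HDAC3 were higher with the compound, and KAT2A, HDAC1, HDAC5 and HDAC7 were lower. CREBBP and KAT2B did not pass the test. Thus 8 of 10 genes passed (limma, Benjamini-Hochberg adjusted p under 0.05), beside 40.4% of the 14732 genes tested. The 4 higher stand beside 25.6% of genes that passed as higher and the 4 lower beside 14.8%. None of the 10 reached 1.5-fold, beside 7.26% of genes that passed and reached it. The median size of the change was 0.204 (log2) for the 10 genes and 0.184 for all genes. Both replicates lay apart from both DMSO libraries for 8 of 10 genes, beside 73.1% of all genes. With all 4 DMSO libraries as controls the count was 3, without SGC-CBP30 replicate 2 it was also 3, and without DMSO replicate 2 of that experiment it was 4. KAT5 and HDAC5 passed under all 17 alternatives run. These include leaving out each library of the CPI203 experiment, which changes the shared spread but not this fold change.

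CPI203 was compared with its own DMSO for the same question about BET inhibition. KAT2B, EP300, HDAC3 and HDAC5 rose, and KAT2A, KAT5, HDAC2 and HDAC7 fell. CREBBP and HDAC1 did not pass. The count was again 8 of 10, beside 64.2% of genes (31.1% higher and 33.1% lower), and 2 of them, KAT2A and KAT2B, reached 1.5-fold, beside 27.8% of genes. The median size of the change was 0.421 (log2), against 0.334 for all genes, and 9 of 10 genes had libraries that did not overlap, beside 80.8%. EP300, KAT2A, KAT2B, KAT5, HDAC2 and HDAC3 passed under all 17 alternatives. These likewise include leaving out each library of the SGC-CBP30 experiment.

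**Figure D2:**
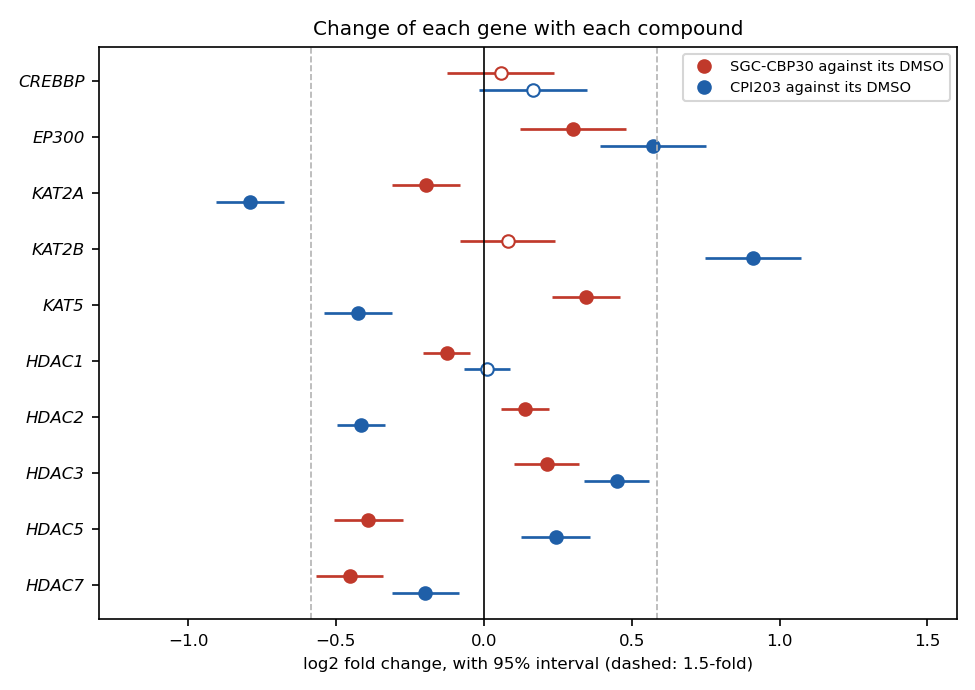
Log2 fold change of each gene with SGC-CBP30 (red) and CPI203 (blue) against its own DMSO pair, with the 95% interval from limma. Filled points passed at an adjusted p under 0.05, and the dashed lines mark 1.5-fold, which KAT2A (-0.79) and KAT2B (0.91) crossed with CPI203 and no gene crossed with SGC-CBP30.

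CREBBP (hg19, chr16:3775055-3930727) and EP300 (chr22:41487790-41576081) encode paralogous coactivators that acetylate histone H3 at enhancers, and both carry the bromodomain that SGC-CBP30 occupies. The DMSO pair of the SGC-CBP30 experiment held EP300 at 14.0 and 12.2 RPKM and the compound pair at 15.6 and 16.7 RPKM. In the CPI203 experiment EP300 was at 9.70 and 10.6 RPKM in DMSO and at 14.9 and 15.3 RPKM with the compound. Both compound pairs lay above their DMSO pair with no overlap. The log2 fold change was 0.30 ± 0.08 (SE; adjusted p = 0.0142) with SGC-CBP30 and 0.57 ± 0.08 (adjusted p = 0.000142) with CPI203, and these changes did not pass the test of their difference (-0.27, 95% interval -0.52 to -0.02, adjusted p = 0.0711). The first of them lost its call in 5 alternatives, among them without SGC-CBP30 replicate 2 (adjusted p = 0.104) and without DMSO replicate 2 (0.108).

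CREBBP was at 21.8 and 19.8 RPKM in DMSO and at 21.3 and 21.9 RPKM with SGC-CBP30. For CPI203 the level was 14.98 and 17.6 RPKM in DMSO and 17.7 and 18.8 RPKM with the compound. The first 2 pairs overlapped, and the CPI203 pair lay just above its DMSO pair. Neither change passed, with 0.06 (log2; 95% interval -0.13 to 0.24, adjusted p = 0.615) for SGC-CBP30 and 0.17 (-0.02 to 0.35, adjusted p = 0.102) for CPI203. The latter was 0.28 (adjusted p = 0.0137) without DMSO replicate 2 of the CPI203 experiment, 0.05 (adjusted p = 0.601) without DMSO replicate 1, and -0.01 (adjusted p = 0.944) with all 4 DMSO libraries as controls.

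KAT2A (GCN5; hg19, chr17:40265126-40273376) and KAT2B (PCAF; chr3:20081515-20195896) are alternative catalytic subunits of the SAGA and ATAC complexes, which acetylate histone H3 at promoters. KAT2A was at 54.8 RPKM in both DMSO libraries and at 48.6 and 47.1 RPKM with SGC-CBP30. The CPI203 experiment held it at 45.9 and 44.6 RPKM in DMSO and at 24.9 and 27.4 RPKM with the compound. Both compound pairs lay below their DMSO, and the CPI203 pair lay well below all other libraries. The change was -0.19 ± 0.05 (log2, SE; adjusted p = 0.0140) with SGC-CBP30 and -0.79 ± 0.05 (adjusted p = 8.25e-07) with CPI203, a difference of 0.59 (95% interval 0.43 to 0.76, adjusted p = 0.000115). The first lost its call in 5 alternatives and was -0.06 (adjusted p = 0.732) with all 4 DMSO libraries as controls.

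KAT2B was at 8.85 and 8.29 RPKM in DMSO and at 8.85 and 9.30 RPKM with SGC-CBP30. In the CPI203 experiment it was at 9.19 and 9.93 RPKM in DMSO and at 17.6 and 18.5 RPKM with the compound. The 6 libraries without CPI203 lay within a narrow band, and both CPI203 libraries lay above it. The rise with CPI203 was 1.88-fold (0.91 ± 0.07, log2, SE; adjusted p = 2.83e-06), while the value with SGC-CBP30 was 0.08 (95% interval -0.08 to 0.24, adjusted p = 0.399). The difference between the compounds was -0.83 (95% interval -1.06 to -0.60, adjusted p = 0.000117).

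The 2 paralogs thus moved in opposite directions with CPI203. KAT2A exceeded KAT2B by 4.99 and 4.49 times in the DMSO libraries of that experiment, and by 1.41 and 1.48 times with CPI203. In the SGC-CBP30 experiment the ratio was 6.20 and 6.60 in DMSO and 5.50 and 5.07 with the compound. In all 8 libraries KAT2A was the more abundant. The levels of both genes summed to 55.1 and 54.5 RPKM in DMSO and to 42.5 and 45.9 RPKM with CPI203, so the summed level was lower with the compound. No test was run on ratios or sums.

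**Figure D3:**
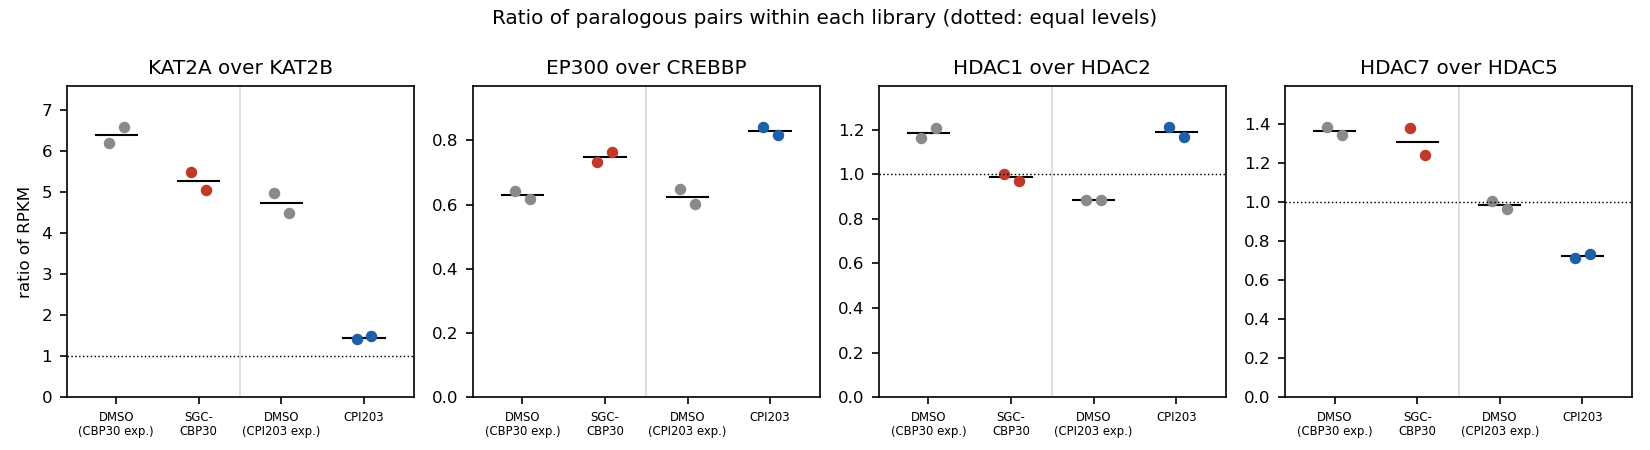
Ratio of RPKM between the paralogs of each pair in each library, with a bar at the mean of 2 replicates and a dotted line at equal levels (CBP30 exp., the SGC-CBP30 experiment). The ratio of KAT2A to KAT2B is between 4.49 and 6.60 in 6 libraries and 1.41 and 1.48 with CPI203, and HDAC1 over HDAC2 crosses 1 in the CPI203 experiment.

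The ratio of EP300 to CREBBP was 0.642 and 0.619 in DMSO and 0.733 and 0.764 with SGC-CBP30, and it was 0.648 and 0.602 in the other DMSO pair and 0.843 and 0.818 with CPI203. Both compound pairs were above all 4 DMSO libraries in this ratio. In every library CREBBP was the more abundant.

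KAT5 encodes TIP60, the acetyltransferase of the TIP60/EP400 complex, which acetylates histones H4 and H2A and acts in the DNA damage response. It was at 40.8 and 40.4 RPKM in DMSO and at 52.6 and 50.7 RPKM with SGC-CBP30. For CPI203 the level was 37.0 and 34.1 RPKM in DMSO and 27.1 and 25.7 RPKM with the compound. The SGC-CBP30 pair was above all other libraries and the CPI203 pair below all others. KAT5 rose with SGC-CBP30 (0.35 ± 0.05, log2, SE; adjusted p = 0.000828) and fell with CPI203 (-0.43 ± 0.05, adjusted p = 5.29e-05). The difference between the compounds was 0.77 (95% interval 0.61 to 0.94, adjusted p = 2.31e-05), and it passed under all 16 alternatives run.

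KAT5 (hg19, chr11:65479467-65487075) overlaps RNASEH2C (chr11:65482367-65488418), which encodes a subunit of ribonuclease H2. The shared stretch, chr11:65482367-65487075, is the 3′ part of KAT5 and the larger part of its span. RNASEH2C was at 58.3 and 58.4 RPKM in DMSO and 54.1 and 51.1 RPKM with SGC-CBP30, and at 45.7 and 42.0 RPKM in the other DMSO pair and 52.5 and 57.6 RPKM with CPI203. Its values thus lay on the opposite side of DMSO from those of KAT5 with each compound, at -0.15 (log2; adjusted p = 0.0665) and 0.33 (adjusted p = 0.000696). Whether the libraries kept the strand is not given in the sources used here, so reads of the shared stretch may have been divided between both genes, and their part in the KAT5 result was not tested.

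HDAC1 (hg19, chr1:32757687-32799236) and HDAC2 (chr6:114254192-114332472) are the paired catalytic subunits of the SIN3, NuRD and CoREST corepressor complexes. HDAC1 was at 79.8 and 81.0 RPKM in DMSO and at 73.9 and 73.5 RPKM with SGC-CBP30. The CPI203 experiment held it at 63.6 and 63.1 RPKM in DMSO and at 64.7 and 62.9 RPKM with the compound. The first 2 pairs did not overlap, and the CPI203 pair straddled its DMSO. The change with SGC-CBP30 was -0.13 ± 0.03 (log2, SE; adjusted p = 0.0175), and with CPI203 the value was 0.01 (95% interval -0.07 to 0.09, adjusted p = 0.807). The change with SGC-CBP30 is smaller than that between the DMSO pairs (-0.34, adjusted p = 7.71e-05), and with all 4 DMSO libraries as controls it was 0.05 (adjusted p = 0.812). The pseudogene HDAC1P2, which may share reads with HDAC1, was between 6.35 and 10.4 RPKM.

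HDAC2 was at 68.5 and 67.1 RPKM in DMSO and at 73.6 and 75.8 RPKM with SGC-CBP30. In the CPI203 experiment it was at 71.7 and 71.3 RPKM in DMSO and at 53.3 and 53.9 RPKM with the compound. The CPI203 pair lay below all other libraries, which were between 67.1 and 75.8 RPKM. HDAC2 fell with CPI203 (-0.42 ± 0.04, log2, SE; adjusted p = 5.18e-06) and rose slightly with SGC-CBP30 (0.14 ± 0.04, adjusted p = 0.0126), a difference of 0.55 (95% interval 0.44 to 0.67, adjusted p = 1.91e-05). The small rise did not pass with each library scaled to the same median (0.06, adjusted p = 0.199), nor without SGC-CBP30 replicate 2 (0.12).

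The ratio of HDAC1 to HDAC2 was 0.886 in both DMSO libraries and 1.21 and 1.17 with CPI203. In the SGC-CBP30 experiment it was 1.17 and 1.21 in DMSO and 1.00 and 0.970 with the compound. The more abundant of the 2 genes therefore differed between the DMSO pairs, and the ratio was on opposite sides of its DMSO with the 2 compounds. The sum of both genes was 135 and 134 RPKM in DMSO and 118 and 117 RPKM with CPI203, and between 147.5 and 149.3 RPKM in all 4 libraries of the other experiment.

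HDAC3 (hg19, chr5:141000443-141016437) is the catalytic subunit of the NCoR corepressor complexes. It was at 28.9 and 29.9 RPKM in DMSO and at 33.9 and 34.4 RPKM with SGC-CBP30. For CPI203 the level was 27.1 and 25.6 RPKM in DMSO and 36.8 and 35.2 RPKM with the compound. Each compound pair was above all 4 DMSO libraries. HDAC3 rose by 0.21 ± 0.05 (log2, SE; adjusted p = 0.00776) with SGC-CBP30 and by 0.45 ± 0.05 (adjusted p = 2.75e-05) with CPI203. The difference was -0.24 (95% interval -0.39 to -0.08, adjusted p = 0.0182), and it was -0.08 (adjusted p = 0.472) with all 4 DMSO libraries as controls.

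HDAC5 (hg19, chr17:42154114-42201070) and HDAC7 (chr12:48176505-48226915) are class IIa deacetylases, which move between nucleus and cytoplasm and bind MEF2 transcription factors. HDAC5 was at 30.3 and 31.9 RPKM in DMSO and at 22.98 and 24.4 RPKM with SGC-CBP30. The CPI203 experiment held it at 28.6 and 27.7 RPKM in DMSO and at 33.9 and 32.7 RPKM with the compound. The SGC-CBP30 pair was below all other libraries and the CPI203 pair above all others. The fall with SGC-CBP30 was -0.39 ± 0.05 (log2, SE; adjusted p = 0.000436) and the rise with CPI203 was 0.24 ± 0.05 (adjusted p = 0.00236), a difference of -0.63 (95% interval -0.80 to -0.47, adjusted p = 8.58e-05). The rise was 0.17 (adjusted p = 0.0704) with all 4 DMSO libraries as controls.

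HDAC7 was at 42.0 and 43.0 RPKM in DMSO and at 31.7 and 30.3 RPKM with SGC-CBP30. In the CPI203 experiment it was at 28.7 and 26.7 RPKM in DMSO and at 24.3 and 24.0 RPKM with the compound. Both compound pairs lay below their own DMSO, but the SGC-CBP30 pair lay above the DMSO pair of the CPI203 experiment. The changes were -0.45 ± 0.05 (log2, SE; adjusted p = 0.000161) with SGC-CBP30, the furthest of the 10 genes with that compound, and -0.20 ± 0.05 (adjusted p = 0.00639) with CPI203. The difference between these changes was -0.26 (95% interval -0.42 to -0.10, adjusted p = 0.0141). With all 4 DMSO libraries as controls the values were -0.15 (adjusted p = 0.639) and -0.51 (adjusted p = 0.0589), so both calls were lost. SLC48A1, whose end overlaps that of HDAC7, was between 6.435 and 9.504 RPKM.

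Of the 10 genes, 7 passed with both compounds. Singly, 40.4% of all genes passed with SGC-CBP30 and 64.2% with CPI203. The share of all genes that passed with both was not counted, so the 7 are not read as particular to these genes. EP300 and HDAC3 were higher with each and KAT2A and HDAC7 lower with each, while KAT5, HDAC2 and HDAC5 moved in opposite directions. The difference between the compounds passed for 8 genes, all but CREBBP and EP300, beside 50.3% of genes. It was positive for 3 (29.3% of genes) and negative for 5 (21% of genes), and for 4 of them (KAT2A, KAT2B, KAT5 and HDAC5) it was at least 1.5-fold, beside 24.5%. Neither class moved as one: 2 acetyltransferases passed upwards and 2 downwards with CPI203, as did 2 and 2 deacetylases. The 5 acetyltransferases summed to 117 RPKM in both DMSO libraries and to 102 and 106 RPKM with CPI203, and the 5 deacetylases to 220 and 214 RPKM in DMSO and to 213 and 209 RPKM with CPI203. In the SGC-CBP30 experiment the acetyltransferases summed to 140.3 and 135.5 RPKM in DMSO and to 147 and 145.7 RPKM with the compound, and the deacetylases to 249.6 and 253 RPKM and to 236.1 and 238.4 RPKM. The acetyltransferase sum was thus below its DMSO with CPI203 and above it with SGC-CBP30. Within the latter, KAT5 rose furthest (means of 40.61 and 51.65 RPKM) and KAT2A fell (54.8 and 47.87 RPKM). KAT5 shares a stretch with RNASEH2C, so this sum carries the same limit.

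The DMSO pairs, which received no compound, were compared to measure how far these genes differ between the experiments. All 10 had libraries that did not overlap between the pairs, beside 71.3% of genes, and 7 passed, all lower in the CPI203 experiment, beside 41.7% of genes tested, 20.3% that passed as higher and 21.5% as lower there. HDAC7, the 1 gene past 1.5-fold (beside 7.84% of genes), differed most (-0.61 ± 0.05, log2, SE; adjusted p = 2.14e-05), followed by EP300 (-0.37, adjusted p = 0.00526), CREBBP (-0.36, adjusted p = 0.00694) and HDAC1 (-0.34). KAT2B, HDAC2 and HDAC5 did not pass. EP300, KAT2A, HDAC1 and HDAC7 passed under all 15 alternatives. These include leaving out each compound-treated library, which is not part of this contrast. The experiment and the library series cannot be told apart, and for 6 genes (CREBBP, EP300, KAT2A, KAT2B, HDAC1 and HDAC7) the shift between controls was larger in size than the change with SGC-CBP30.

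The partner subunits and the other enzymes of histone acetylation were examined as 11 lists with 130 genes, of which 127 were tested. MEF2B, CITED1 and CITED4 were under the minimum mean of 1 RPKM. With SGC-CBP30, 35 were higher and 27 lower, which is 48.8% beside 40.4% of all genes. Of these, 1 of the higher and 4 of the lower reached 1.5-fold, which is 3.94% beside 7.26% of all genes. With CPI203, 50 were higher and 43 lower, which is 73.2% beside 64.2%. There 21 and 9 reached 1.5-fold, which is 23.6% beside 27.8% of all genes. At 1.5-fold both shares were thus below those of all genes. The counts with SGC-CBP30 depend on single libraries, with 35 calls in all without SGC-CBP30 replicate 2 and 39 without replicate 1.

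**Figure D4:**
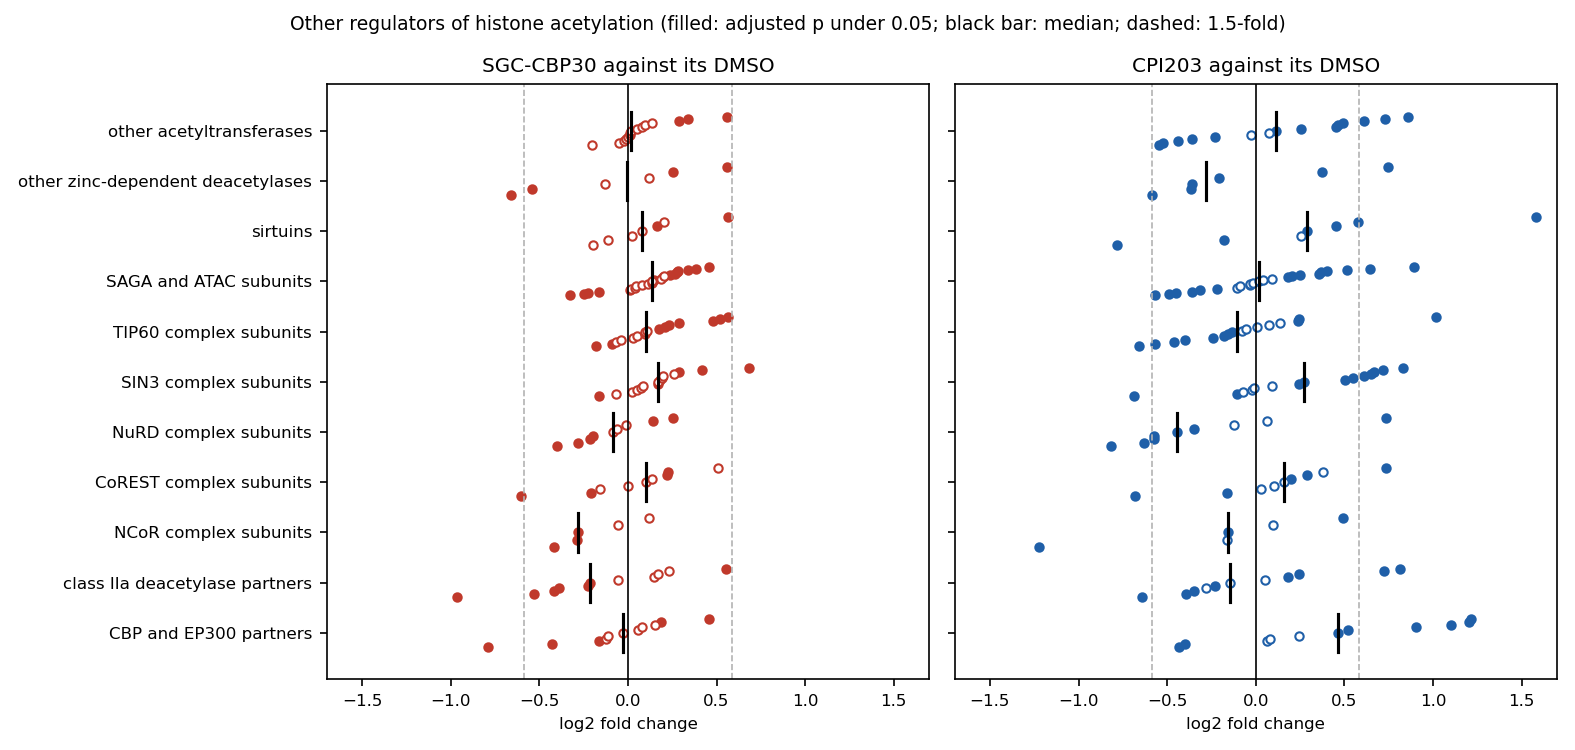
Log2 fold change of the 127 tested genes of the 11 lists with SGC-CBP30 (left, red) and CPI203 (right, blue), 1 point per gene, filled where the adjusted p was under 0.05, with a black bar at each list's median. SIRT1 lies furthest to the right with CPI203 at 1.58 and TBL1XR1 furthest to the left at -1.23.

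Partners of CBP and EP300 stood highest with CPI203 by their median (0.461, log2, against -0.015 for all genes), with 6 of 11 tested higher and 2 lower, beside 31.1% and 33.1% of all genes. CITED2, a CBP/EP300-binding regulator of hypoxia signalling, rose from a mean of 14.8 ± 0.8 to 34.4 ± 0.4 RPKM (SD, n = 2; 1.21, log2, adjusted p by limma = 2.25e-07). CREB1, the cAMP-responsive factor that gave CBP its name, rose from 20.8 to 44.7 RPKM (1.10), STAT2, a factor of interferon signalling, from 40.7 to 93.8 RPKM (1.20), and MAML1, a Notch coactivator, from 6.77 to 12.8 RPKM (0.91). None of these 4 rose with SGC-CBP30: CITED2 (-0.43, adjusted p = 0.000840) and STAT2 (-0.17, adjusted p = 0.0101) fell, and CREB1 (0.06) and MAML1 (0.15) did not pass. MAML2, a paralog of MAML1, fell with SGC-CBP30 from 2.58 to 1.45 RPKM (-0.79, adjusted p = 0.00183). MAML2 also fell with CPI203, from 2.35 to 1.71 RPKM (-0.44, adjusted p = 0.0184). Its difference between the compounds did not pass (-0.35, adjusted p = 0.158).

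Among other acetyltransferases, 8 of 15 were higher and 5 lower with CPI203 (over all genes, 31.1% higher and 33.1% lower), and 3 were higher and 0 lower with SGC-CBP30 (over all genes, 25.6% and 14.8%). With SGC-CBP30, 20% of this list passed, beside 40.4% of all genes. The steroid receptor coactivators NCOA3 (12.8 to 23.4 RPKM; 0.86, log2) and NCOA1 (8.20 to 13.7 RPKM; 0.73) and the MYST family enzyme KAT6A (16.7 to 25.4 RPKM; 0.61) rose by over 1.5-fold with CPI203. Of the SAGA and ATAC subunits that work with KAT2A and KAT2B, 9 of 23 were higher and 6 lower with CPI203, with TAF12 (22.8 to 42.5 RPKM; 0.89) and MBIP (11.7 to 18.4 RPKM; 0.65) over 1.5-fold, while 9 were higher and 4 lower with SGC-CBP30. MBIP also rose with SGC-CBP30 (0.46, adjusted p = 0.000386), and its difference between the compounds did not pass (-0.19, adjusted p = 0.0862).

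Of the TIP60 complex subunits that work with KAT5, 3 of 16 were higher and 8 lower with CPI203 (over all genes, 31.1% and 33.1%), and 7 were higher and 2 lower with SGC-CBP30 (over all genes, 25.6% and 14.8%). The list's median was -0.106 (log2) with CPI203 and 0.102 with SGC-CBP30, against -0.015 and 0.0704 for all genes. BRD8, a bromodomain subunit, went the other way with CPI203, from 28.5 to 57.7 RPKM (1.02, adjusted p = 1.61e-07). MRGBP fell from 26.5 to 16.8 RPKM (-0.66).

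The subunits that work with HDAC1 and HDAC2 are given with CPI203 unless stated, beside 31.1% of all genes higher and 33.1% lower, and the lists were not tested against each other. Of the NuRD subunits, 6 of 9 were lower and 1 higher, with CHD3, a chromatin remodeller, falling from 35.9 to 20.4 RPKM (-0.82, log2) and GATAD2A from 28.1 to 18.2 RPKM (-0.63), while its paralog GATAD2B rose from 18.2 to 30.4 RPKM (0.74). Of the SIN3 subunits, 9 of 15 were higher and 2 lower, with ARID4A (0.83), SAP30L (0.72) and ING2 (0.67) higher and SUDS3 (-0.69) lower. BRMS1L, another SIN3 subunit, rose with SGC-CBP30 from 1.44 to 2.36 RPKM (0.68, adjusted p = 0.0105), a call that was lost without SGC-CBP30 replicate 2 (adjusted p = 0.0948) and without DMSO replicate 1 (adjusted p = 0.0696). With all 4 DMSO libraries as controls BRMS1L was at 0.39 (adjusted p = 0.293), and its DMSO pairs differed by 0.59. BRMS1L also rose with CPI203 (0.65, adjusted p = 0.00662), and its difference between the compounds did not pass (0.03, adjusted p = 0.931). In the CoREST list 3 of 9 were higher and 2 lower, with RCOR1 (0.74) and ZMYM3 (-0.68) past 1.5-fold. PHF21A fell with SGC-CBP30 (-0.60, adjusted p = 7.2e-05) and with CPI203 its value was 0.03 (adjusted p = 0.692).

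TBL1XR1, a subunit of the NCoR complexes of HDAC3, fell with CPI203 from 56.3 ± 6.4 to 24.0 ± 0.1 RPKM (SD, n = 2; -1.23, log2, adjusted p by limma = 3.98e-07), while HDAC3 itself rose. Of this list, 2 of 5 were lower and 1 higher with CPI203, beside 33.1% and 31.1% of all genes. With SGC-CBP30, 3 were lower and 0 higher, beside 14.8% and 25.6% of all genes. Among the partners of class IIa deacetylases, 6 of 11 were lower and 1 higher with SGC-CBP30, beside 14.8% and 25.6% of all genes, and the list was not tested. CAMK4, a kinase that drives class IIa enzymes out of the nucleus, fell from 20.3 to 10.3 RPKM (-0.97, adjusted p = 0.000119), and with all 4 DMSO libraries as controls it did not pass (-0.68, adjusted p = 0.0580). With CPI203, ANKRA2 (0.81) and the kinase SIK2 (0.72) rose and the kinase PRKD3 (-0.64) fell. ANKRA2 also rose with SGC-CBP30 (0.55, adjusted p = 0.00651), and its difference between the compounds did not pass (-0.26, adjusted p = 0.25).

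Among the other zinc-dependent deacetylases, HDAC11 rose with CPI203 from 1.66 to 2.84 RPKM (0.75, log2, adjusted p = 0.00224). It also rose with SGC-CBP30, from 1.13 to 1.71 RPKM (0.56, adjusted p = 0.0200). The difference between the compounds did not pass (-0.19, adjusted p = 0.51), and the DMSO pairs of HDAC11 differed by 0.51 (adjusted p = 0.0283). HDAC4, a class IIa enzyme like HDAC5 and HDAC7, was at 9.87 and 6.19 RPKM without and with SGC-CBP30 (-0.66, adjusted p = 0.0377) and at 6.33 and 4.24 RPKM without and with CPI203 (-0.59, adjusted p = 0.0400). Both calls were lost when any of several libraries was left out, with adjusted p up to 0.324 for CPI203 without its replicate 1. Of the sirtuins, which depend on NAD+, SIRT1 rose with both compounds. Its level went from 13.1 to 19.4 RPKM with SGC-CBP30 (0.57, adjusted p = 5.4e-05) and from 15.1 to 45.2 RPKM with CPI203 (1.58, adjusted p = 1.68e-08). SIRT5, the mitochondrial desuccinylase, fell with CPI203 from 8.14 to 4.68 RPKM (-0.78).

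Genes whose levels followed the same pattern were ranked by Pearson's r over the 8 libraries among the 7708 genes averaging 10 RPKM or more. These are descriptions over 8 points that share experiments and libraries. KAT2B was most like ARPC5, ELF1 and UXS1 (r = 0.998 each), and HDAC7 most like IDH2 and RPL18 (0.997 each). EP300 was most like DCP1A (0.981), SRSF11 (0.979) and QRICH1 (0.976), and CREBBP most like VDAC3 (0.976), FZD6 (0.952) and RBM17 (0.946).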

How the data were processed

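RNA-seq of 8 LP-1 libraries was analysed. The authors deposited a table of RPKM by gene and library, made by a sequencing provider from total RNA. The submitters' processing notes name TopHat 1.4.1, Cufflinks and hg19. Another 24 columns of the table hold libraries outside these samples and were not used. Of 63129 genes, 27 lacked a value and were dropped, and the 14732 averaging 1 RPKM or more were tested. The scale was log2(RPKM + 0.1) without rescaling, fitted by limma 3.58.1 in R 4.3.3 (group means over all 8 libraries, eBayes with an intensity trend, 4 residual and 5.48 prior degrees of freedom), with Benjamini-Hochberg adjustment over all genes tested, two-sided. Fold changes are on that scale and understate low genes. The fit was tested on simulated data. An exact test of 2 against 2 libraries cannot go below p = 0.333, so limma was used throughout. The labels give replicates as numbers only, and the main fit did not pair them, so p-values measure the spread between these samples. KAT2A has a second row on a patch scaffold, at 0 in all libraries, which was left out.

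The 10 genes, the lists of partner genes and the tests were chosen with earlier results of these data known. Named regulators passed at an adjusted p under 0.05 and 1.5-fold in either compound, at most 4 per list and compound. IRF4 and MYC were named as a check, and for EP300, CREBBP, HDAC7 and KAT2B the 3 genes of highest r were named, of which 1 is not reported here. Depth was estimated from 3693 single-exon genes of at least 800 bases under 0.5 RPKM, where 60% to 75.6% of values were whole reads within 0.05. Start sequences are from RefSeq (GRCh38.p14), and exons from GENCODE release 29. Alternatives were the pseudocount, the filter, scaling, separate fits, no trend, pooled DMSO, the replicate block and each library left out.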

Additional observations from a re-analysis of the deposited data

Results flagged for a closer look

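The effect of SGC-CBP30 minus that of CPI203 passed the test of the difference itself (limma, adjusted p under 0.05) for 8 of the 10 genes. On the log2 scale it was 0.59 for KAT2A, -0.83 for KAT2B, 0.77 for KAT5, -0.14 for HDAC1, 0.55 for HDAC2, -0.24 for HDAC3, -0.63 for HDAC5 and -0.26 for HDAC7. Of these, KAT2A, KAT2B, KAT5, HDAC2 and HDAC5 passed in all 16 alternatives.

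The same test passed for 26 of the 32 named regulators, beside 50.3% of all genes. They were named for passing at 1.5-fold with 1 or both compounds, a choice that favours a difference between the compounds. The effect of CPI203 stood above that of SGC-CBP30 for CITED2 (-1.64), STAT2 (-1.37), NCOA3 (-1.06), CREB1 (-1.04), SIRT1 (-1.01), MAML1 (-0.75), BRD8 (-0.73), KAT6A (-0.66), PHF21A (-0.63), RCOR1 (-0.60), GATAD2B (-0.60), SIK2 (-0.58), ARID4A (-0.57), CAMK4 (-0.57), TAF12 (-0.55), ING2 (-0.47), NCOA1 (-0.44) and SAP30L (-0.30). It stood below for TBL1XR1 (0.93), SUDS3 (0.85), SIRT5 (0.59), MRGBP (0.59), ZMYM3 (0.47), PRKD3 (0.43), CHD3 (0.42) and GATAD2A (0.35).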

How the results depend on the processing

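With all 4 DMSO libraries as controls, the members that passed went from 8 to 3 with SGC-CBP30 and from 8 to 5 for the difference between the compounds, and the regulators with SGC-CBP30 from 62 to 24. Reversed under that choice were CREBBP with CPI203 (-0.01), HDAC1 with SGC-CBP30 (0.05) and CPI203 (-0.16), and the differences for CREBBP (0.25), EP300 (0.10), HDAC1 (0.21) and HDAC7 (0.36). Without a filter on low values, more genes were tested, the members between the DMSO pairs went from 7 to 4 and the regulators with SGC-CBP30 from 62 to 38. CREBBP with SGC-CBP30 was -0.02 with median scaling and KAT2B with SGC-CBP30 was -0.01 with quantile normalization. Leaving out 1 library gave 3 to 8 members with SGC-CBP30, 8 to 9 with CPI203, 6 to 8 for the difference and 4 to 7 between the DMSO pairs, and 35 to 62 regulators with SGC-CBP30 and 79 to 91 with CPI203. In these settings CREBBP ranged from -0.01 (without DMSO replicate 2 of that experiment) to 0.13 with SGC-CBP30 and from -0.22 to 0.01 (without DMSO replicate 1 of the CPI203 experiment) for the difference, and HDAC1 with CPI203 from -0.01 (without CPI203 replicate 1) to 0.03. With all 4 DMSO libraries as controls, each compound was set against the mean of both DMSO pairs. The difference there was SGC-CBP30 minus CPI203 directly, so the values under that choice include the shift between the DMSO pairs. For the other settings the cause was not tested. None of the reversed values had passed in the main analysis except HDAC1 with SGC-CBP30 and the differences for HDAC1 and HDAC7. Scaling moved the median of all genes by under 0.1 (log2). The paper took its fold changes against paired DMSO controls, while the labels give replicate numbers only. Same-numbered samples did not deviate together (correlation -0.0963 in the SGC-CBP30 experiment and 0.00863 in the CPI203 experiment), so the main fit did not take the numbers as pairs. With the replicate block, 6 members passed with SGC-CBP30, 8 with CPI203, 7 for the difference and 5 between the DMSO pairs, and 56 and 88 regulators with each compound. Depth hardly limits these genes, and each group has only 2 libraries.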

Other observations

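Further genes that supply or read acetylation were listed by function after the main results had been seen. Over all genes, 31.1% were higher and 33.1% lower with CPI203, and 25.6% and 14.8% with SGC-CBP30. Of 10 genes of acetyl-CoA supply, 4 were higher and 2 lower with CPI203, and ACSS2, which makes acetyl-CoA from acetate, rose from 7.52 ± 0.21 to 13.7 ± 0.2 RPKM (SD, n = 2; 0.86, log2, adjusted p by limma = 1.41e-05), while with SGC-CBP30 its value was -0.06 (adjusted p = 0.621). Of 7 tested genes that make NAD+, the cofactor of sirtuins, 4 were higher and 1 lower with CPI203 and 0 higher and 2 lower with SGC-CBP30. NMNAT1 rose with CPI203 from 4.84 to 9.31 RPKM (0.93, adjusted p = 7.46e-05) and NMRK1 fell with SGC-CBP30 from 17.7 to 9.19 RPKM (-0.94, adjusted p = 6.62e-06).

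Of 28 tested acetyl-lysine readers outside the BET family, 9 were higher and 10 lower with CPI203, and 10 higher and 3 lower with SGC-CBP30. The counts with CPI203 are near the shares over all genes. With CPI203 the bromodomain genes ATAD2 (52.8 to 100.3 RPKM; 0.92, log2) and TRIM24 (18.6 to 33.2 RPKM; 0.83) rose, and ZMYND8 (3.52 to 0.933 RPKM; -1.81), SP110 (8.05 to 4.23 RPKM; -0.91), MLLT1 (21.4 to 11.8 RPKM; -0.85) and SP100 (14.4 to 9.51 RPKM; -0.59) fell. SMARCA2, an ATPase of the SWI/SNF complex, fell with SGC-CBP30 from 44.0 to 28.8 RPKM (-0.61, adjusted p = 1.2e-05). With CPI203 it rose slightly, from 37.4 to 42.0 RPKM (0.17, adjusted p = 0.00762), and the difference passed (-0.78, adjusted p = 8.5e-06).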
